A study of Mus musculus with 4 samples.

Results

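The intercellular adhesion molecules (ICAMs) and the leukocyte integrins that bind them were followed in subclones of the mouse hybridoma 36-65. The genes were chosen by name, with their high minus low differences on these same arrays already known. They were the ICAM genes Icam1, Icam2, Icam4 and Icam5 and the integrin chains Itgal, Itgam, Itgb2, Itga4, Itgb1 and Itgb7. All probe sets whose platform gene symbol was 1 of these 10 genes were taken, which gave 20 of the 45037 probe sets tested. Icam1, Icam2, Icam4, Icam5, Itgam, Itgb2 and Itgb7 had 1 probe set each, Itgal had 2, Itga4 had 5 and Itgb1 had 6. Since the differences between the classes were known when the genes were chosen, those of the 20 probe sets are given below as a description. Those that passed the threshold used for all probe sets are named as a description too, and not as evidence.

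A hybridoma joins the antibody genes of a B cell to the endless growth of a myeloma, and each subclone was grown out of the parent line. The high switching class held subclones H23 and H27, which the labels describe as switching isotype spontaneously at high frequency in culture. The low switching class held subclones L25 and L27, which switched at low frequency. All 4 were grown untreated in medium with 10% fetal calf serum, and 1 array of total RNA was hybridized for each. Each class is thus represented by 2 clones of 1 cell line, and the labels do not say whether clones of a class arose independently, so every error below measures the spread between these arrays only. The median probe set had an intensity of 38.6 in H23, 39.3 in H27, 38.6 in L25 and 38.1 in L27, or between 5.25 and 5.30 on the log2 scale. Values below are log2 intensities of 1 probe set. They are compared between subclones and not between genes, because probe sets differ in how brightly they report a transcript.

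The labelled cell type was checked against 14 measured genes of B and plasma cells. Among them Jchain, which joins polymeric antibodies, averaged 14.46 in high switching and 14.42 in low switching subclones. Sdc1, the plasma cell surface proteoglycan CD138, averaged 12.57 in high switching and 12.46 in low switching subclones. Of the 14, 1 was higher and 2 were lower in high switching subclones by limma at an adjusted p under 0.05 over all probe sets. Cd79b, a chain of the B cell receptor, was higher, with a log2 difference of 0.77 (limma adjusted p = 0.0238). Xbp1, a factor of the secretory programme of plasma cells, was lower by a difference of -0.71 (limma adjusted p = 0.0461), as was Tnfrsf17, the plasma cell survival receptor BCMA, by -0.71 (limma adjusted p = 0.0454). Prdm1, of the same list, went the other way without being called, at 11.94 in high switching and 11.19 in low switching subclones. Its difference was 0.74 (limma adjusted p = 0.119). Without overlap between the classes, 4 of the 14 were higher in high switching subclones and 4 lower, where 25.1% of all probe sets were higher and 22.2% lower. The part of these genes in the differences below was not tested. Cd79a, the partner chain of Cd79b, was dimmer than the median of each array, at 5.12 in high switching and 5.14 in low switching subclones.

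ICAMs are cell surface proteins of the immunoglobulin superfamily, and integrins are their receptors, each a pair of 1 alpha and 1 beta chain. Itgal with Itgb2 forms LFA-1 and Itgam with Itgb2 forms Mac-1, both of which bind ICAM-1, while Itga4 pairs with Itgb1 to form VLA-4 or with Itgb7 to form LPAM-1, which bind VCAM-1 and MAdCAM-1. B cells and plasma cells use LFA-1 and VLA-4 to hold on to follicular dendritic cells, endothelium and bone marrow stroma. Icam1, Icam4 and Icam5 lie next to each other on chromosome 9. Icam2 lies on chromosome 11, Itgal and Itgam on chromosome 7, Itgb2 on chromosome 10, Itga4 on chromosome 2, Itgb1 on chromosome 8 and Itgb7 on chromosome 15.

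The chromosome 9 ICAM genes were brighter in high switching subclones, while Icam2 overlapped between the classes. Icam1, the inducible ICAM of leukocytes and endothelium and the main ligand of LFA-1, read 8.57 in H23 and 8.21 in H27, against 6.85 in L25 and 7.31 in L27 (probe set 1424067_at). Both high switching subclones lay above both low switching ones, with a gap of 0.90 between the nearest arrays of the 2 classes. The means were 8.39 ± 0.25 in high and 7.08 ± 0.33 in low switching subclones (SD, n = 2 each), a log2 difference of 1.31 ± 0.20 (SE) or 2.48-fold. Within the classes, H27 lay 0.36 below H23 and L27 lay 0.46 above L25.

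Icam4, an ICAM first described as a red cell blood group protein, read 6.73 in H23 and 6.77 in H27, against 5.34 in L25 and 5.35 in L27 (1422930_at). Its classes were the most cleanly separated of the ICAM genes, with a gap of 1.38 and SDs of 0.03 for the high switching and 0.01 for the low switching pair. The log2 difference was 1.41 ± 0.10 (SE), or 2.65-fold. The low switching arrays lay within 0.1 of the median probe set, where RMA compresses differences.

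Icam5, known as telencephalin from forebrain neurons, read 6.27 in H23 and 6.55 in H27, against 5.94 in L25 and 6.0 in L27 (1418619_at). The classes did not overlap, but the gap of 0.26 was smaller than the distance of 0.29 between the high switching subclones. The log2 difference was 0.44 ± 0.13 (SE), or 1.35-fold. Icam2, the ICAM that is present on resting lymphocytes and endothelium, read 9.32 in H23 and 9.02 in H27, against 9.11 in L25 and 8.97 in L27 (1448862_at). H27 lay between the 2 low switching arrays, and the log2 difference of Icam2 was 0.13, with a 95% interval from -0.21 to 0.47.

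**Figure D1:**
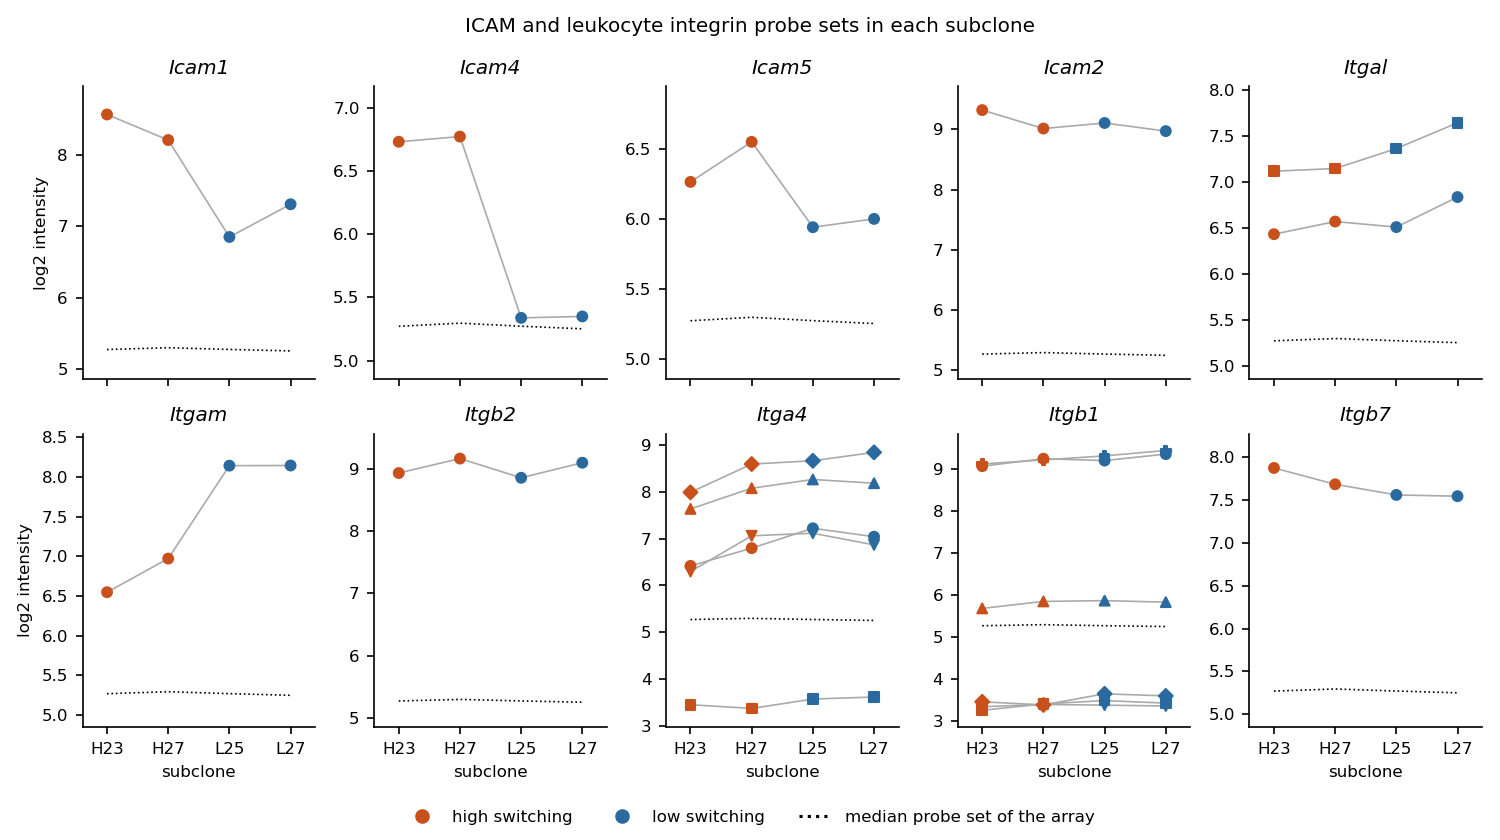
Log2 intensity of each probe set of the 10 genes (vertical axis, a scale of its own in each panel) in subclones H23, H27, L25 and L27 (horizontal axis). Orange points are high and blue points low switching subclones, each shape with its grey line is 1 probe set, and the dotted line is the median probe set of the array. Icam1 and Icam4 were above both low switching arrays in H23 and H27, and Itgam was below both.

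Among the integrin alpha chains, Itgam differed most. Itgam, the alpha chain CD11b of Mac-1 and best known from myeloid cells, read 6.55 in H23 and 6.97 in H27, against 8.14 in both L25 and L27 (1422046_at). The low switching arrays were alike to within 0.01, the high switching arrays were 0.42 apart, and the gap between the classes was 1.17. The log2 difference was -1.38 ± 0.16 (SE), so the intensity was 2.61-fold lower in high switching subclones. Of 11 measured genes of myeloid cells fixed as a marker list, 0 passed the test in either direction, at an adjusted p under 0.05 from limma over all probe sets, and 7 were dimmer than the median of each array. The median of this list was 4.99 in H23 and 4.74 in H27, against 4.67 in L25 and 4.77 in L27. Without overlap between the classes, 7 of the 11 were higher in high switching subclones and 0 lower, where 25.1% of all probe sets were higher and 22.2% lower in this way, and the median difference of the list was 0.16. Cd68, a lysosomal protein, was bright at 10.26 in high switching and 9.72 in low switching subclones. Spi1, the factor PU.1 that B cells also use, was bright at 9.41 in high switching and 9.29 in low switching subclones. Itgax, the alpha chain CD11c that lies close to Itgam on chromosome 7, was dimmer than the median of each array, at 4.44 in high switching and 4.49 in low switching subclones.

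Itgal, the alpha chain CD11a of LFA-1, was measured by 2 probe sets, both with a negative difference and neither past the threshold. On the brighter one (1435560_at) it read 7.12 in H23 and 7.15 in H27, against 7.36 in L25 and 7.64 in L27. The classes did not overlap there, with a log2 difference of -0.37 ± 0.13 (SE). On the other (1425367_at) it read 6.43 in H23 and 6.57 in H27, against 6.51 in L25 and 6.84 in L27, so H27 lay above L25, and the difference was -0.17 ± 0.14 (SE).

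Itga4, the alpha chain CD49d of VLA-4 and LPAM-1, had a negative difference on all 5 probe sets, and on 4 of them H23 was the lowest of the 4 arrays. On the brightest probe set (1436037_at) it read 8.0 in H23 and 8.60 in H27, against 8.67 in L25 and 8.85 in L27. H27 was thus closer to L25 than to H23, and the log2 difference of -0.46 ± 0.21 (SE) was -0.16 without H23 and -0.77 without H27. On 1450155_at Itga4 read 7.64 in H23 and 8.08 in H27, against 8.27 in L25 and 8.19 in L27, and the difference of -0.37 was -0.15 without H23. On 1421194_at it read 6.42 in H23 and 6.80 in H27, against 7.23 in L25 and 7.05 in L27, a difference of -0.53 ± 0.16 (SE) that was -0.34 without H23. These 3 probe sets share the order of the high switching subclones, H27 above H23, and differ in that of the low switching ones. On 1456498_at the classes overlapped, with 6.30 in H23 and 7.07 in H27, against 7.12 in L25 and 6.87 in L27, and the difference of -0.31 was 0.07 without H23. The last probe set (1427615_at) read between 3.37 and 3.61 on the 4 arrays, far below the median probe set, and says little about Itga4.

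The beta chains differed less than Icam1, Icam4 or Itgam. Itgb2, the beta chain CD18 shared by LFA-1 and Mac-1, read 8.94 in H23 and 9.17 in H27, against 8.86 in L25 and 9.10 in L27 (1450678_at). The classes overlapped, and the log2 difference was 0.07, with a 95% interval from -0.27 to 0.42. Set beside its partners, Itgb2 differed by 0.07 where Itgam differed by -1.38 and Itgal by -0.37.

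Itgb1, the beta chain CD29 that pairs with many alpha chains, was bright on 2 probe sets. It was a little above the array medians on 1427771_x_at and dimmer than the median of each array on the rest. On 1452545_a_at it read 9.13 in H23 and 9.22 in H27, against 9.32 in L25 and 9.45 in L27, with a difference of -0.21 ± 0.11 (SE). On 1426918_at it read 9.08 in H23 and 9.25 in H27, against 9.21 in L25 and 9.36 in L27, where the classes overlapped. The other 4 probe sets differed by 0.20 or less in size. Of these, 1426919_at and 1426920_x_at carry the same sequence accession as 1426918_at, yet read between 3.25 and 3.65 on every array, so probe sets assigned to a single Itgb1 sequence did not report it alike.

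Itgb7, the beta chain of LPAM-1, which directs lymphocytes and plasma cells to the gut, read 7.87 in H23 and 7.68 in H27, against 7.56 in L25 and 7.55 in L27 (1418741_at). The classes did not overlap, with a gap of 0.12 that was smaller than the distance of 0.19 between H23 and H27, and the log2 difference was 0.23 ± 0.12 (SE). The beta chains that pair with Itga4 thus had differences of -0.21 (Itgb1) and 0.23 (Itgb7), beside -0.46 for Itga4 itself.

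**Figure D2:**
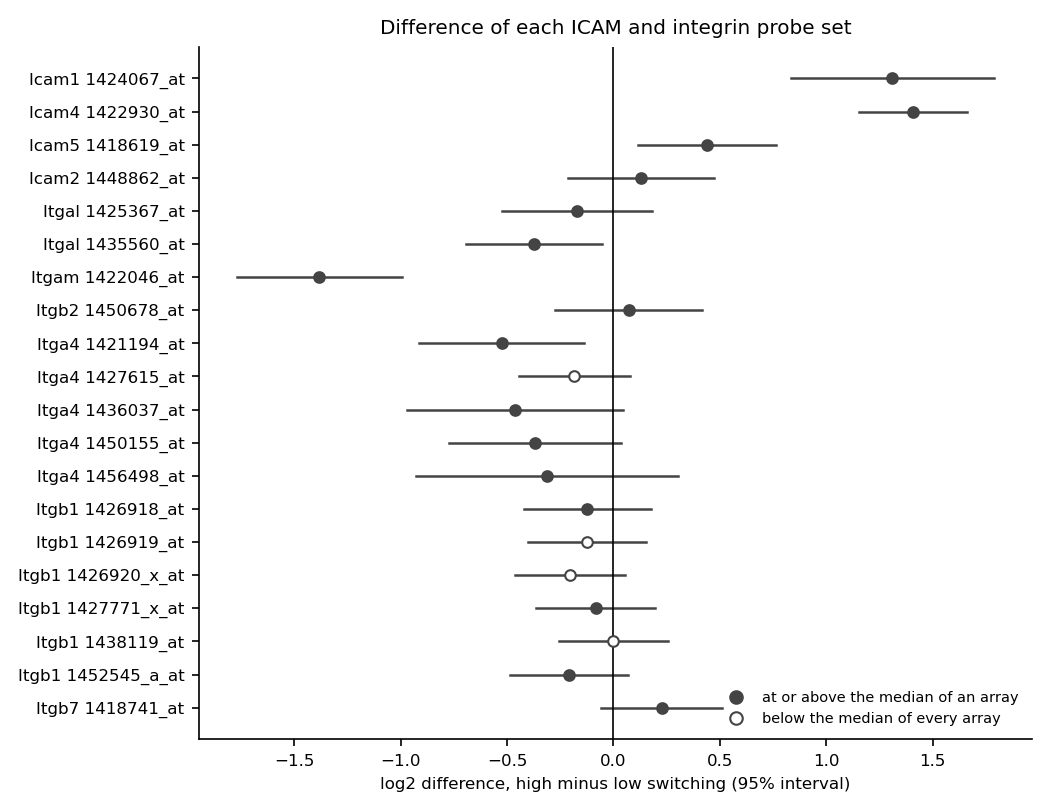
Log2 difference of each of the 20 probe sets, high minus low switching (horizontal axis), with its 95% interval from limma. Open points are dimmer than the median of each array. Icam1 (1.31) and Icam4 (1.41) lie to the right, Itgam (-1.38) to the left, and the other 17 probe sets between -0.53 and 0.44.

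Over the 20 probe sets, the threshold used for all probe sets (a limma adjusted p under 0.05) was passed by 2 that were higher in high switching subclones, Icam1 and Icam4, and by 1 that was lower, Itgam, while 1.5% of all probe sets were called higher and 2.1% lower. Both high switching arrays lay above both low switching arrays on 4 of the 20 (Icam1, Icam4, Icam5 and Itgb7), while 25.1% of all probe sets did so. They lay below on 9, which belonged to Itgam, Itgal, Itga4 and Itgb1, where 22.2% of all probe sets did so. Nothing is read from these counts, since the genes were chosen with this comparison known and several probe sets share a gene. The median difference of the 20 was -0.15, and that of all probe sets 0.01. With 2 arrays a class, the smallest two-sided p of an exact permutation test is 0.333. With 1 array left out in turn, the log2 difference lay between 1.08 and 1.54 for Icam1 and between 1.39 and 1.43 for Icam4. For Itgam it lay between -1.59 and -1.17. Icam1 and Itgam did not pass the threshold in all of these fits, nor with a minimum fold of 1.5. With the hybridization control level as a block, Icam1, Icam4 and Itgam all fell short of it. That block left their differences unchanged, with fewer degrees of freedom for the test.

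Differences between subclones of the same class show how far the arrays differed on these genes with no change of class. With 1 array for each subclone, variation between clones and between arrays cannot be told apart. H27 and H23 differed at least 1.5-fold on 2 of the 20 probe sets, both of Itga4 (0.61 and 0.77), and L27 and L25 on 0 of the 20. Of all probe sets, 2.49% differed that much between H27 and H23, and 2.11% between L27 and L25. The widest distance between the low switching subclones was that of Icam1, 0.46.

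Promoter sequences are shown for the 3 ICAM genes of chromosome 9, which lie in a row and were all brighter in high switching subclones, and for Itgam, which was dimmer. They are the 250 bases before the RefSeq start of each gene in assembly GRCm38.p6, read on the plus strand, at chr9:21015690-21015939 for Icam1, chr9:21029182-21029431 for Icam4, chr9:21031788-21032037 for Icam5 and chr7:128062390-128062639 for Itgam. RefSeq promoter entries were found for 7 of the 10 genes. Capitals mark matches, on either strand, to 5 short motifs: GGANNTTCC for NF-kappaB, a factor of inflammatory signalling, TTCNNNGAA (GAS) for STAT factors, TGANTCA for AP-1, GAGGAA for the myeloid and B cell factor PU.1 and GGGCGG, the GC box bound by Sp1.
Icam1: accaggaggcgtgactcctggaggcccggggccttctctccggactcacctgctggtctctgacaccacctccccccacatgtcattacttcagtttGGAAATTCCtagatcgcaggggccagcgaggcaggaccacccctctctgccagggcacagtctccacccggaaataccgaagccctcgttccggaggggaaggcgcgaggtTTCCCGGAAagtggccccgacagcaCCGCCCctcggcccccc
Icam4: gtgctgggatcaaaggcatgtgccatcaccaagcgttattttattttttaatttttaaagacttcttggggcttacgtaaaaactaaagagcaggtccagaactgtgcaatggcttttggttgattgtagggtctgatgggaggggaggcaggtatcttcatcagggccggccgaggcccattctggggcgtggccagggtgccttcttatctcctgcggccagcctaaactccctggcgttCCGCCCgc
Icam5: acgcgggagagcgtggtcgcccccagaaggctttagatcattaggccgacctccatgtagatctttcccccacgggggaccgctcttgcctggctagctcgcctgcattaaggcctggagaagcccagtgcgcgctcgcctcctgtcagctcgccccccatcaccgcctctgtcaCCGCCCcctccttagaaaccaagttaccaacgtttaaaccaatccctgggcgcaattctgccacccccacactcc
Itgam: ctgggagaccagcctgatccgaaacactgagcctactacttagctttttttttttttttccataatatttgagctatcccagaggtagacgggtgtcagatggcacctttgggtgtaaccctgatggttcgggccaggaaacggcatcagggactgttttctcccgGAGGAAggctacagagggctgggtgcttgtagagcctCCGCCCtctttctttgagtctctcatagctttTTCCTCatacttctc

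In the Icam1 window, GGAAATTCC lay 153 to 145 bases before the start and matched the NF-kappaB motif on both strands. TTCCCGGAA, 42 to 34 bases before the start, matched GAS, which reads the same on both strands, and a GC box followed 17 to 12 bases before the start. No match overlapped one to another motif. The Icam4 and Icam5 windows each held 1 GC box, at 8 to 3 and at 75 to 70 bases before the start, and the Itgam window held 2 PU.1 matches and 1 GC box. Of 32851 mouse promoter windows of the same length, 3.59% held the NF-kappaB motif, 7.02% GAS, 6.75% AP-1, 23.3% PU.1 and 32.7% the GC box. The NF-kappaB and GAS letters occurred in 1 of the 7 promoters, that of Icam1, and AP-1 in 0 of 7. PU.1 letters occurred in 2 of the 7, those of Itgam and Itgb1, and the GC box in 6 of the 7. These are matches of letters only, and no binding was measured.

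Genes around the ICAM cluster were compared in their order along chromosome 9, with 5 measured genes on each side. All 10 neighbours had a positive log2 difference, with a median of 0.37, while the 1006 measured genes of the chromosome had a median of 0.02. On the side of Icam1, 3 of 5 neighbours were higher in high switching subclones by limma with adjustment over all probe sets, and on the side of Icam5 0 of 5 were. Over all genes, read at 1 probe set for each, 2.04% were called higher and 2.78% lower. S1pr2, a sphingosine 1-phosphate receptor that confines B cells to the germinal centre, read 10.64 in H23 and 10.95 in H27, against 7.68 in L25 and 8.96 in L27. Both high switching subclones lay above both low switching ones, and the low switching pair stood 1.29 apart. The log2 difference of S1pr2 was 2.48 ± 0.39 (SE, limma adjusted p = 0.0324), and it was 1.84 without L25 and 3.12 without L27. The call of S1pr2 ended without H23 or without H27. It also ended with a minimum fold of 1.5 (limma adjusted p = 0.210) and with the hybridization control level as a block (limma adjusted p = 0.119).

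Angptl6, which encodes a secreted angiopoietin-like factor, read 10.17 in H23 and 10.39 in H27, against 8.46 in L25 and 8.59 in L27. Its difference of 1.75 ± 0.13 (SE, limma adjusted p = 0.00356) stayed past the threshold when any 1 array was left out, and the call ended with the hybridization control level as a block (adjusted p = 0.0539). Mrpl4, a protein of the mitochondrial ribosome and the neighbour next to Icam1, read 11.39 in H23 and 11.31 in H27, against 10.56 in both L25 and L27, a difference of 0.78 ± 0.11 (SE, limma adjusted p = 0.0218). The call of Mrpl4 ended when any 1 array was left out and with a minimum fold of 1.5. It also ended with the hybridization control level as a block (limma adjusted p = 0.0959), which left the difference at 0.78. With 1 array left out in turn, the difference of Mrpl4 lay between 0.75 and 0.82. Dnmt1, the maintenance DNA methyltransferase, had a difference of 0.54 on its brightest probe set (adjusted p = 0.157) and was called higher on its other 2 (0.69 and 0.71). Ppan, a ribosome assembly factor, had a difference of 0.45 (adjusted p = 0.0793).

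On the side of Icam5 the differences were 0.07 for Zglp1, 0.25 for Raver1, 0.29 for the kinase Tyk2, 0.14 for the co-chaperone Cdc37 and 0.02 for the phosphodiesterase Pde4a. With 15 genes on each side, a width chosen after the values were seen, 5 of 15 before Icam1 and 0 of 15 after Icam5 were called higher, and 0 of 30 were called lower. The median difference was 0.47 before and 0.25 after the cluster. Differences ranged from -0.04 to 2.48 before it and from -0.35 to 0.97 after it. Among the genes after Icam5 that fell short of the threshold were Slc44a2 (0.97, limma adjusted p = 0.0547), Kri1 (0.52, 0.0637) and Cdkn2d (0.79, 0.0754). The counts of calls thus do not show that the positive differences end at Icam5. The difference between the 2 sides was not tested. Around the alpha chains of chromosome 7, 1 of 10 neighbours of Itgam and 1 of 10 neighbours of Itgal were called lower and 0 higher. Their median differences were -0.12 and -0.33. All 10 neighbours of Itgal had a negative difference, from -0.59 to -0.15, while those of Itgam ranged from -0.63 to 0.13.

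**Figure D3:**
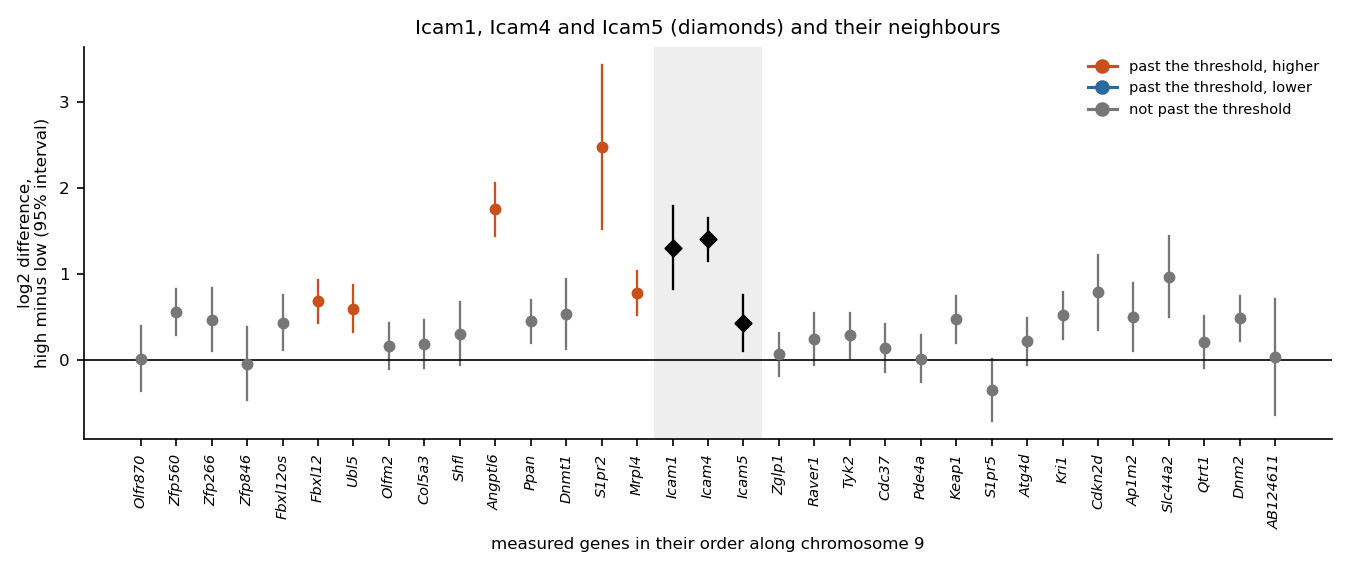
Log2 difference of measured genes, high minus low switching (vertical axis), in their order along chromosome 9 (horizontal axis, not to distance), with 95% intervals from limma and 1 probe set for each gene. Black diamonds on grey are Icam1, Icam4 and Icam5, orange marks other genes past an adjusted p of 0.05, and S1pr2 (2.48) and Angptl6 (1.75) stand highest. No gene shown was called lower.

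The remaining genes of integrin adhesion were taken from 7 lists of ligands, other chains, activators, inhibitors and linkers. Of 71 measured genes 1 was higher and 3 were lower by limma at an adjusted p under 0.05 over all probe sets, beside the 2.04% and 2.78% of all genes given above, and the median difference was 0.04. All 4 were among the 17 activators, genes whose products switch integrins to the binding state or act with them in it. Nothing is read from their place in 1 list, since the lists were chosen with earlier results of these data known. Among the 13 other alpha chains, 5 other beta chains, 9 other ligands, 7 inhibitors, 15 signal and actin linkers and 5 partners of ICAM tails, 0 passed.

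Cd47, an immunoglobulin superfamily protein that associates with integrins, read 10.70 in H23 and 10.76 in H27, against 11.78 in L25 and 11.70 in L27. It was lower in high switching subclones by a log2 difference of -1.01 ± 0.11 (SE, limma adjusted p = 0.0122), and 3 of its 5 probe sets were called lower. Fermt2 (kindlin-2, a co-activator that binds beta chain tails) read 5.27 in H23 and 5.35 in H27, against 5.98 in L25 and 6.34 in L27. The difference was -0.85 ± 0.15 (limma adjusted p = 0.0394), and 2 of its 3 probe sets were called lower. Its high switching arrays lay near the median probe set, where RMA compresses differences. Rassf5 (RAPL, an effector of Rap1 that acts on LFA-1) had 9.74 in H23 and 9.75 in H27, against 10.33 in L25 and 10.28 in L27, a difference of -0.56 ± 0.10 (limma adjusted p = 0.0483). Both of its probe sets were called lower. Skap2, an adaptor of the Src kinase pathway to integrins, was the gene that was higher, at 12.07 in H23 and 11.91 in H27, against 11.22 in L25 and 11.40 in L27. Its difference was 0.68 ± 0.12 (limma adjusted p = 0.0455), and 1 of its 3 probe sets was called. Without any 1 array the calls of Fermt2, Rassf5 and Skap2 ended, and that of Cd47 held only without H27. The call of Rassf5 also ended with quantile normalization applied again (adjusted p = 0.0559).

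Talin and the haematopoietic kindlin, which bind beta chain tails to activate integrins, were not called, with differences of 0.09 for Tln1 (limma adjusted p = 0.782) and 0.21 for Fermt3 (adjusted p = 0.773). Of the Rap1 GTPases that act upstream of them, Rap1a differed by 0.81 ± 0.16 (SE, adjusted p = 0.0517) on the probe set that stands for it, and its other probe set was called higher (1.30, adjusted p = 0.0243). Rap1b differed by 0.09 (adjusted p = 0.751) on its brightest probe set. On its others it differed by 0.15 (adjusted p = 0.559) and 0.54 (adjusted p = 0.181). Vcam1 and Madcam1, the endothelial ligands of the Itga4 integrins, were dimmer than the median of each array. Vcam1 averaged 5.22 in high switching and 5.07 in low switching subclones, and Madcam1 averaged 4.35 in high switching and 4.22 in low switching subclones. Fgr, a Src family kinase that acts downstream of beta-2 integrins in myeloid cells, read 8.35 in H23 and 7.43 in H27, against 6.15 in L25 and 6.62 in L27, 2.83-fold higher without passing the test (limma adjusted p = 0.0631). Of its 2 probe sets the other was called higher (adjusted p = 0.0428). Fgr lies outside the rule for named genes and was chosen after its values were seen. Itgax, Slc44a2, Kri1 and Cdkn2d above and Sipa1 and Msn below also lie outside that rule.

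**Figure D4:**
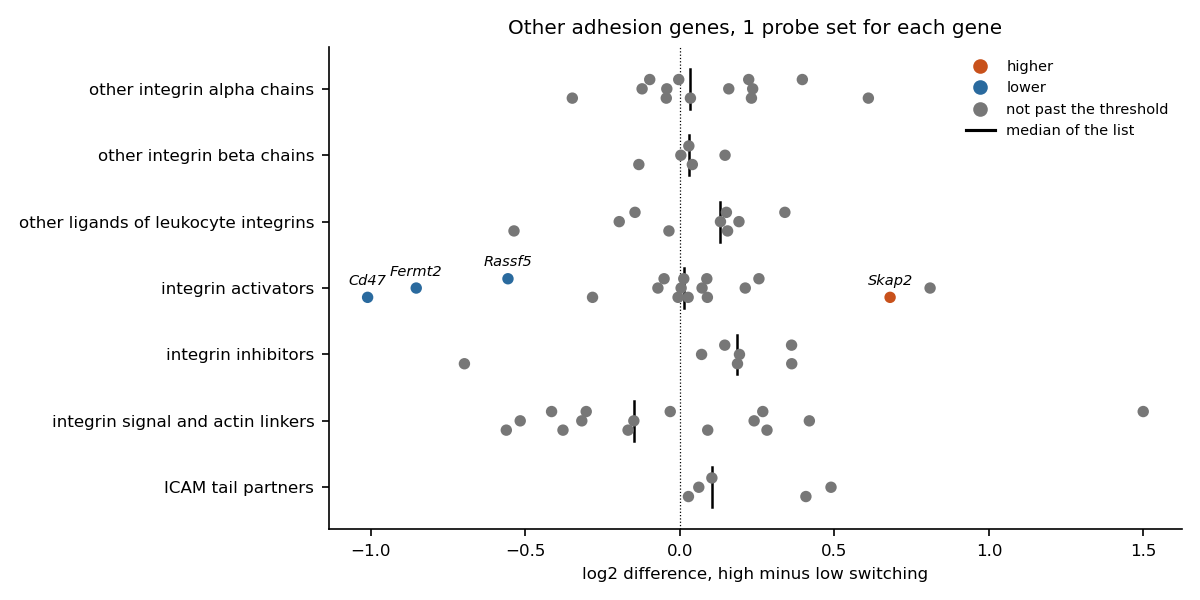
Log2 difference, high minus low switching (horizontal axis), of the 71 measured genes in 7 adhesion lists (rows), with 1 point for each gene and a black bar at the median of the list. Skap2 (0.68, orange) was called higher, and Cd47 (-1.01), Fermt2 (-0.85) and Rassf5 (-0.56, blue) lower.

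The genes whose pattern over the 4 arrays came nearest to that of Icam1 were Dcaf12, Grina and Thnsl1, at distances of 0.13, 0.16 and 0.17. The distance is Euclidean on log2 values after the mean of each probe set was subtracted, over 4 arrays and 8221 genes with a mean of at least 7. Nearest to Itgam were Il10rb, Zdhhc21 and Ctso, at distances of 0.06, 0.07 and 0.13. Il10rb, a receptor chain for interleukin 10, read 8.43 in H23 and 8.79 in H27, against 10.02 in both L25 and L27. With 4 arrays many genes share a pattern, and the names are given as a description.

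Of 9 endothelial, 8 neuronal, 6 erythroid and 9 T cell markers, 0 passed in either direction. Of these, 6 endothelial, 6 neuronal, 4 erythroid and 1 T cell marker were dimmer than the median of each array. Without overlap between the classes, 5 endothelial markers were higher in high switching subclones and 0 lower. The same counts were 4 higher and 2 lower for neuronal, 3 higher and 1 lower for erythroid and 2 higher and 2 lower for T cell markers. Of all probe sets, 25.1% were higher and 22.2% lower without overlap. The part of these cell types in the ICAM differences was not tested. In RNA from whole cultures, fewer cells that make a transcript and less of it in each cell cannot be told apart.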

How the data were processed

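Each of 4 subclones gave 1 Affymetrix array of total RNA, per the labels. The authors deposited linear intensity values made with RMA (background correction, normalization between arrays, probe summary), which the submitters' processing notes name without a version. No genome build is named by the sources used here. RMA shrinks differences of dim probe sets. There were 45101 probe sets, of which 64 controls were dropped and 45037 tested, with no filter. Intensities were transformed to log2. Gene symbols came from the platform annotation of 2016, which gave 1 symbol for 34945 probe sets, several for 932 and none for 9160. Of those with 1 symbol, 34741 matched a RefSeq gene table of GRCm38.p6, used for names, chromosomes and gene order only. Promoters are RefSeq sequences of the same assembly.

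High minus low switching was tested with the moderated test of limma 3.58.1 under R 4.3.3, two-sided, Benjamini-Hochberg adjusted over all probe sets, at 0.05, and the test was checked on simulated data. The SE is limma's moderated one, and intervals are at 95%. A listed gene was read at its brightest probe set, and 71 of 79 listed genes were measured. The 10 genes, the lists and the tests were chosen with earlier results of these data known. The rule for named genes took all probe sets of the 10 genes, up to 4 called genes from each list with Vcam1, Madcam1, Tln1, Fermt3, Rap1a and Rap1b, 5 neighbours on each side of the ICAM cluster, and the 3 nearest patterns for each of the 10 genes with a difference of at least 1 and a brighter class mean of at least 7. Alternatives were an intensity trend, a mean of at least 7, quantile normalization again, a minimum fold of 1.5, averaging a gene's probe sets, each array left out and, added after the data had been seen, the hybridization control level as a block. The number of arrays limits the precision.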

Additional observations from a re-analysis of the deposited data

How the results depend on the processing

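Among the ICAM and integrin probe sets, those that changed sign under an alternative were Icam2 (-0.02 without H23), Itgb2 (-0.05 without L25 and -0.04 without H27), Itga4 on 1456498_at (0.07 without H23) and the dim Itgb1 probe set 1438119_at, which was 0.03 without H23. Itgb1 was -0.12 averaged over its 6 probe sets, against -0.21 on the brightest. Counts of calls depended on the processing, and the cause was not tested beyond what each alternative changes. Over all probe sets, limma called 674 higher and 944 lower. These counts were 59 and 104 with a minimum fold of 1.5, and from 112 to 253 higher and from 196 to 329 lower with 1 array left out, where a class has a lone array that is assumed to vary like the others. Of the 71 adhesion genes, 1 was called higher and 3 lower. With an intensity trend 2 were higher (Skap2 and Rap1a), with a mean of at least 7 there were 3 (Skap2, Rap1a and Fgr), and with a gene's probe sets averaged there were 3 (Rap1a, Fgr and Msn). The lower calls were 3 with a trend, 3 with a mean of at least 7, 2 with quantile normalization again and 4 with probe sets averaged. Sipa1, a GTPase activator that turns Rap1 off, was among the lower calls with a mean of at least 7 (limma adjusted p = 0.0359) and with probe sets averaged (0.0386), against 0.0563 as reported. With a minimum fold of 1.5, 0 were higher and 0 lower, and with 1 array left out from 0 to 1 were higher and from 0 to 1 lower. The mean level of the hybridization controls was 10.49 in H23 and 10.98 in H27, against 11.07 in L25 and 10.45 in L27, so it crossed the classes. With this level as a block (added after the data had been seen, with fewer degrees of freedom left), 58 probe sets were higher and 94 lower, and of the adhesion genes 0 and 0. No paired analysis was possible because the subclone names give the classes fewer shared numbers than a pairing needs. Differences of probe sets near or below the median of the array are limited by signal over background.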
